A study of Mus musculus with 8 samples.

Results

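Transforming growth factor beta (TGF-beta) signalling was followed through 10 genes, which were taken by symbol from the deposited table. The table holds 10639 genes, and 9 of the 10 had a row: the ligand Tgfb1, the receptors Tgfbr1 and Tgfbr2, the signal carriers Smad2, Smad3 and Smad4, and the nuclear repressors Ski, Skil and Tgif1. Smad7 was not analysed here. RNA was sequenced from the mouse macrophage-like line RAW264.7, an established line transformed with Abelson leukaemia virus and labelled wild type, in 4 groups of 2 libraries. One group was untreated, one was given lipopolysaccharide (LPS, an endotoxin of Gram-negative bacteria that TLR4 detects) at 50 ng/mL for 12 h, one was given antibodies to CD36 (a cell-surface receptor that takes up fatty acids and modified lipoproteins) at a dilution of 1 in 100 for 12 h, and one was given LPS with the antibodies for 12 h, with no dose in its labels. The labels give no time for the untreated group, so its time in culture may differ from the 12 h of the others. None of the groups analysed here received an antibody of another specificity. Nothing in the labels says that the 2 libraries of a group came from separate cultures, so the p-values weigh differences against a library-to-library spread that may be technical.

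TGF-beta is secreted in a latent form and, once released, binds the type II receptor Tgfbr2, which phosphorylates the type I receptor Tgfbr1. Tgfbr1 then phosphorylates Smad2 and Smad3, which join Smad4 and act on genes in the nucleus, where Ski, Skil (also called SnoN) and Tgif1 recruit repressors to the SMAD complex. In macrophages the pathway is known for restraining inflammatory genes and for upholding tissue-resident identity.

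Levels are FPKM (fragments per kilobase of transcript, scaled to the reads of a library), a unit per length that allows genes to be set side by side. Library depth, recovered from the values, was 47900000 to 71700000 reads. All 9 genes came out at whole reads, from 316 for Tgfbr1 in combination replicate 1 to 20125 for Tgfb1 in the same library, so counting error is small beside the differences described. All 12 macrophage markers looked for had a row, with a summed FPKM of 4156 to 4850 untreated, 4746 to 4836 with LPS, 5328 to 6319 with anti-CD36 and 4555 to 5145 with the combination. The sums hide opposite changes with LPS: mean Csf1r went from 308 to 103 FPKM and mean Adgre1 from 13.0 to 83.4. By the calls defined below, 5 of the 12 rose with LPS and 3 fell, against 17% and 37.5% of all genes. Of markers of other cells, none of 8 for fibroblasts, none of 6 for megakaryocytes and platelets and none of 7 for epithelium and endothelium had a row, 1 of 9 for T cells did (Lck, 1.89 to 2.00 FPKM untreated, 4.21 to 4.32 with LPS, 1.72 to 1.87 with anti-CD36 and 4.15 with the combination) and 1 of 5 for B cells did (Cd79b, 0.0753 to 0.107 untreated, 0.774 to 1.17 with LPS, 0.0292 to 0.268 with anti-CD36 and 0.862 to 1.46 with the combination). The table holds no gene with a 0 in any library, so a missing row does not show that a gene was silent in every group. In these bulk libraries, fewer cells with a transcript and less of it per cell cannot be told apart. The antibody libraries lay farther apart than other replicates (SD of the replicate difference over genes 0.451 on the log2 scale, against 0.137 to 0.22 in the other groups), and transcripts of 13 mitochondrial genes made up 15.7% of all FPKM in replicate 1 of anti-CD36 against 3.28% to 6.62% in the other 7 libraries. The part of these markers and shares in the results was not tested.

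With LPS the type II receptor, Smad3 and Ski fell and Tgif1 rose, while the ligand and the other 4 genes were not called. Tgfbr2 went to 0.42 times its untreated mean, Smad3 to 0.39 times and Ski to 0.51 times, and Tgif1 rose 2.97-fold. Calls required an adjusted p under 0.05 (Benjamini-Hochberg, over the 10289 genes tested) in a limma model of log2(FPKM + 1) fitted to all 8 libraries. LPS changed many genes: 54.6% of all tested genes were called, 17% higher and 37.5% lower, so 4 of 9 called, 1 higher and 3 lower, is not above the background. FPKM ranges of the LPS and untreated libraries did not overlap in 8 of the 9, of which 6 were lower, against 85.1% of all genes, with 54.5% of all genes lower. The median difference was -0.22 over the 9 genes and -0.19 over all genes. With median-ratio size factors, which equalize the typical gene between libraries, the median of all genes moved to 0.0021, the share of rises among all calls went from 31.2% to 49.2%, and the same 4 genes were called.

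The stretch before the transcription start of these 4 genes is shown because they were the ones called with LPS, 3 lower and 1 higher. The sequences are from RefSeq (GRCm38.p6, minus strand for all 4, printed 5′ to 3′ toward the gene), with 6 of the 9 genes found in that table, and bases within annotated exons of the gene were left off. Tgif1 has 5 starts in the table and its outermost is shown. Which start the cells used was not measured. Capitals mark the motifs found on either strand.
Tgfbr2 chr9:116175364-116175613: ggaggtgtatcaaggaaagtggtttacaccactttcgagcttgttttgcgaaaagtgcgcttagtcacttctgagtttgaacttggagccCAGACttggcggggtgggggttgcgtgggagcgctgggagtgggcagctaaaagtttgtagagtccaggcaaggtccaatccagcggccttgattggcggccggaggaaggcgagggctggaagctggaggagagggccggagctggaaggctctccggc
Smad3 chr9:63757995-63758244: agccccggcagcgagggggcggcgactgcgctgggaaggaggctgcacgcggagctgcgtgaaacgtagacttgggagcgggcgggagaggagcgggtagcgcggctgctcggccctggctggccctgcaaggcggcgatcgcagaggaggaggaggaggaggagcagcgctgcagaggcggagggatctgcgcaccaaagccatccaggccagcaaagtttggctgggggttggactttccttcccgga
Ski chr4:155222593-155222785: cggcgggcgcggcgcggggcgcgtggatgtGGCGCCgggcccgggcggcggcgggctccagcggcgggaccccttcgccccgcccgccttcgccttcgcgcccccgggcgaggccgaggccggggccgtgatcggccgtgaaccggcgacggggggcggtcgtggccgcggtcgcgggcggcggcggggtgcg
Tgif1 chr17:70853547-70853782: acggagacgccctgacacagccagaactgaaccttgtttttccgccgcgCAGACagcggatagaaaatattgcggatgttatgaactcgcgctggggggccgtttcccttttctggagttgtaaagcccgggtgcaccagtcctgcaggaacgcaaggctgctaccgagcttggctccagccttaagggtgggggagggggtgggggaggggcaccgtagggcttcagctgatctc

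The motifs searched on both strands were CAGAC (the SMAD box), GGCGCC (a GC-rich SMAD motif), the kappaB motif, TGANTCA (AP-1) and TTCNNNGAA (STAT). Tgfbr2 held 1 CAGAC, present in 42.2% of all 32851 promoters over the same 250 bases, and Tgif1 held 1, present in 40.5% over 236 bases. Ski held 1 GGCGCC in 193 bases, present in 6.8% of promoters over that length. The Smad3 window held none of the 5 as searched. None of the 4 windows held the kappaB letters in the 1 form searched, or the AP-1 or STAT letters. Over 250 bases 1.4%, 6.7% and 7.0% of all promoters hold them. The kappaB form was strict, with few open positions. Looser kappaB matches were not looked for, so their absence is not shown. GC content was 58.4% for Tgfbr2, 69.2% for Smad3, 86.5% for Ski and 59.7% for Tgif1, against 53.2% over all promoters. A match is a description of letters and not a binding site.

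Tgfb1 (chromosome 7, 25687002 to 25705077, plus strand, GRCm38, protein-coding), the ligand, was the most abundant of the 9, above 90.7% of the table's genes in untreated cells. Its FPKM was 45.9 and 51.7 untreated, 52.5 and 52.7 with LPS, 78.6 and 37.2 with anti-CD36, and 65.3 and 58.3 with the combination. The antibody libraries lay on either side of every other library, and the combination libraries lay above the LPS ones. None of the comparisons called Tgfb1: the log2 difference was 0.11 ± 0.30 (SE) with LPS, 0.15 ± 0.30 with anti-CD36 and 0.23 ± 0.30 for the combination against LPS (limma adjusted p = 0.775, 0.778 and 0.736). Left without anti-CD36 replicate 1, Tgfb1 was called lower with the antibodies (-0.38, limma adjusted p = 0.0383), and without replicate 2 it was called higher (0.68, limma adjusted p = 0.00788). No direction is therefore given for Tgfb1 with the antibodies. LPS in antibody-treated cells gave 0.18 (limma adjusted p = 0.632), called higher without anti-CD36 replicate 1 (0.71, limma adjusted p = 0.00128) and lower without replicate 2 (-0.34, limma adjusted p = 0.0341).

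**Figure D1:**
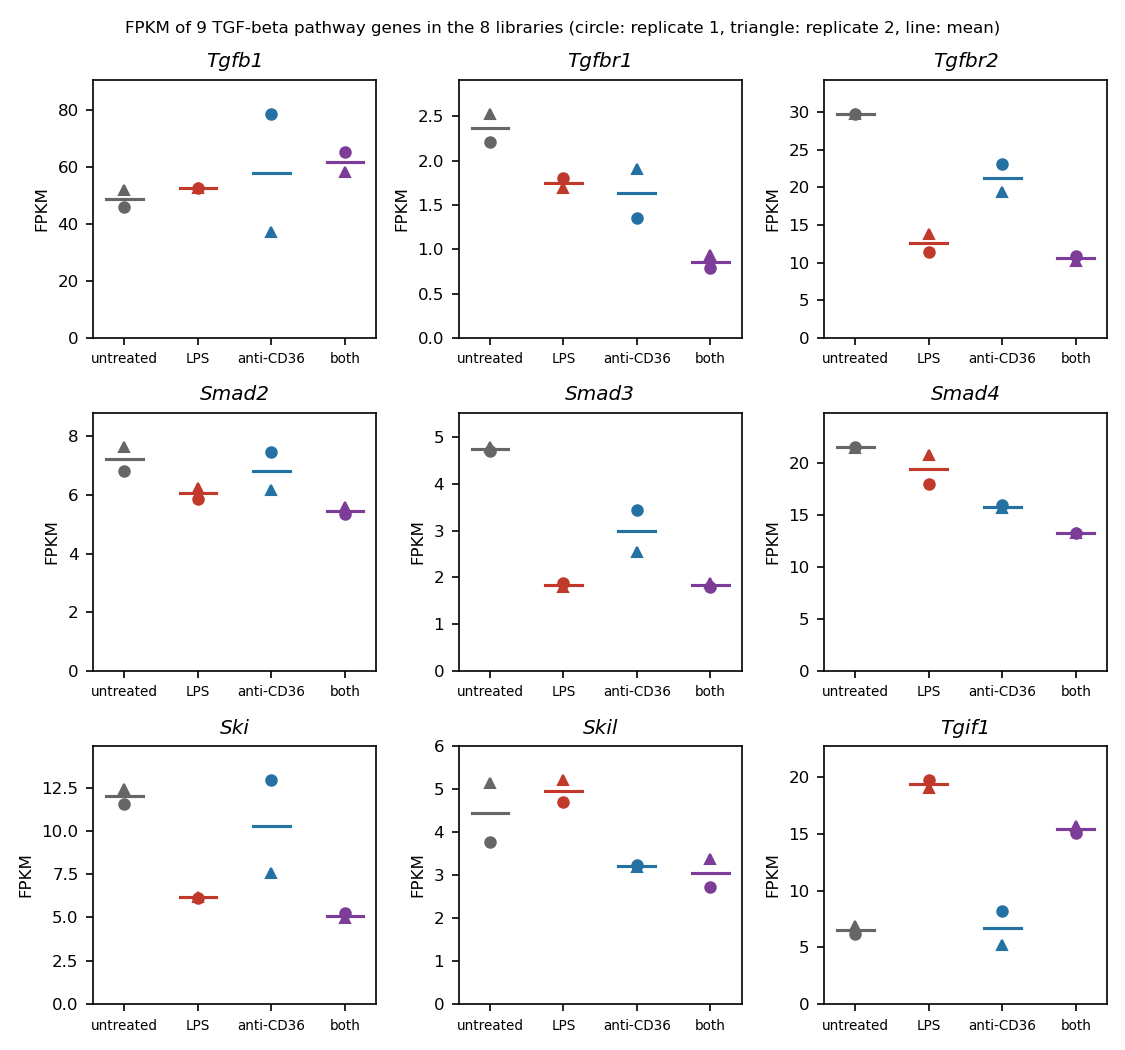
FPKM of each of the 9 genes (vertical axes, starting at 0) in untreated, LPS, anti-CD36 and combination ("both") libraries; circles are replicate 1, triangles replicate 2 and lines the group mean. Tgif1 is high in the 4 LPS-treated libraries (15.1 to 19.8), Tgfbr2 and Smad3 are low in them, and the anti-CD36 libraries of Tgfb1 stand at 78.6 and 37.2.

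Tgfbr2 (chromosome 9, 116084293 to 116175360, minus strand), the receptor that binds the ligand, was abundant at rest and fell more with LPS than Tgfbr1 did (0.42 against 0.74 times the untreated mean). Its FPKM was 29.8 and 29.7 untreated, 11.4 and 13.7 with LPS, 23.1 and 19.3 with anti-CD36, and 10.9 and 10.2 with the combination. Untreated libraries were highest, antibody libraries next, and the LPS and combination libraries lowest, with no overlap between any groups. The log2 difference with LPS was -1.19 ± 0.13 (SE, limma adjusted p = 0.000275), and with LPS in antibody-treated cells -0.94 ± 0.13 (limma adjusted p = 0.00098). Both calls held in every alternative, with values of -1.31 to -0.90 and -1.06 to -0.72. With anti-CD36 alone it stood at 0.71 times the untreated mean, which just missed the call (-0.48 ± 0.13, limma adjusted p = 0.0526). It was called there with a pseudocount of 5 (limma adjusted p = 0.041), with limma-voom (0.046) and without anti-CD36 replicate 1 (-0.60). The other 15 of 18 alternatives did not call it, among them size factors (-0.38, limma adjusted p = 0.13). Values over the 18 ran from -0.60 to -0.24.

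Tgfbr1 (chromosome 4, 47353222 to 47414931, plus strand), the kinase that phosphorylates Smad2 and Smad3, was the scarcest of the 9 in untreated cells, above 18% of the table's genes. Its FPKM was 2.21 and 2.53 untreated, 1.80 and 1.69 with LPS, 1.35 and 1.91 with anti-CD36, and 0.791 and 0.933 with the combination. The combination libraries lay below all others, and the LPS and antibody libraries overlapped each other. In reads, the combination held 316 and 326 against 805 and 1186 untreated. LPS alone gave -0.30 ± 0.13 (limma adjusted p = 0.0819, not called), LPS in antibody-treated cells -0.49 ± 0.13 (limma adjusted p = 0.0152), and the combination against LPS -0.56 ± 0.13 (limma adjusted p = 0.0724, 0.49 times the LPS mean, not called). With LPS alone Tgfbr1 was called lower without anti-CD36 replicate 1 (limma adjusted p = 0.0249) or 2 (0.0254) and in a fit on those 4 libraries (0.0355), and stood at 0.0045 with the length trend removed. The call in antibody-treated cells was lost without combination replicate 1 (limma adjusted p = 0.0947) or 2 (0.0507), in a fit on only those groups (0.0523) and with the length trend removed (0.109). Ratios of 2 genes within a library, which a scale factor leaves unchanged, were chosen after their values were seen and carry no test. That of Tgfbr2 to Tgfbr1 was 13.4 and 11.8 untreated and 6.32 and 8.13 with LPS, but 13.7 and 11.0 with the combination, and 17.1 and 10.1 with anti-CD36.

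Smad3 (chromosome 9, 63646767 to 63757994, minus strand), which binds DNA directly, was called lower with LPS, where Smad2 and Smad4 were not called. Its FPKM was 4.70 and 4.80 untreated, 1.88 and 1.81 with LPS, 3.44 and 2.55 with anti-CD36, and 1.79 and 1.89 with the combination. The LPS and combination libraries shared 1 low level, and the antibody libraries lay between that and the untreated ones without overlap. The log2 difference was -1.02 ± 0.12 with LPS (SE, limma adjusted p = 0.000415), called in all 17 alternatives that could be run, and -0.53 ± 0.12 with anti-CD36 (limma adjusted p = 0.0326). The combination did not differ by the test from LPS (-0.0023 ± 0.12, limma adjusted p = 0.995). LPS in antibody-treated cells gave -0.48 ± 0.12 (limma adjusted p = 0.0145), a call lost with size factors (0.0643), after quantile normalization (0.0848), after removal of the length trend (0.118), in a fit on those 4 libraries (0.063) and without combination replicate 1 (0.0814) or 2 (0.0619). The interaction, the LPS difference with the antibodies minus that without them, was 0.53 ± 0.17 and was not called (limma adjusted p = 0.301). It was called without anti-CD36 replicate 1 (0.69, limma adjusted p = 0.0364).

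Smad2, the other receptor-activated SMAD of the pathway, ran from 5.35 to 7.65 FPKM over the 8 libraries and was not called in any comparison of all 8 libraries. Without anti-CD36 replicate 2 it was called lower with LPS in antibody-treated cells (-0.39, limma adjusted p = 0.0189). Its difference with LPS was -0.22 ± 0.12 (limma adjusted p = 0.152), and 0.064 with the length trend removed, so no direction is given. The ratio of Smad2 to Smad3 within a library was 1.45 and 1.59 untreated, 3.12 and 3.46 with LPS, 2.16 and 2.42 with anti-CD36, and 2.98 and 2.96 with the combination.

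Smad4, the shared partner of all receptor-activated SMADs, was called lower with anti-CD36, a call lost in 11 of 18 alternatives, and was not called with LPS. Its FPKM was 21.6 and 21.5 untreated, 18.0 and 20.8 with LPS, 15.9 and 15.7 with anti-CD36, and 13.2 and 13.3 with the combination. The 4 antibody-treated libraries were all below the 4 others. The log2 difference was -0.42 ± 0.11 with anti-CD36 (SE, limma adjusted p = 0.0398) and -0.51 ± 0.11 for the combination against LPS, which was not called (limma adjusted p = 0.061). With LPS alone it was -0.15 ± 0.11 (limma adjusted p = 0.269), and the sign turned with size factors (0.079). The interaction was -0.089 ± 0.15 (limma adjusted p = 0.838).

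Among the nuclear repressors, Tgif1 (chromosome 17, 70844205 to 70853546, minus strand), a homeodomain protein that recruits histone deacetylases to SMADs, was the gene of the 9 that rose. Its FPKM was 6.17 and 6.90 untreated, 19.8 and 19.1 with LPS, 8.25 and 5.17 with anti-CD36, and 15.1 and 15.8 with the combination. The 4 LPS-treated libraries lay well above the 4 others, and the combination lay below LPS without overlap. The log2 difference was 1.44 ± 0.18 with LPS (SE, limma adjusted p = 0.000499) and 1.12 ± 0.18 with LPS in antibody-treated cells (limma adjusted p = 0.00199), both called in all 18 alternatives. The combination against LPS was -0.32 ± 0.18 (limma adjusted p = 0.396) and the interaction -0.32 ± 0.26 (limma adjusted p = 0.62). Set against Smad3 in the same library, Tgif1 was at 1.31 and 1.44 times its FPKM untreated, 10.5 and 10.6 times with LPS, 2.40 and 2.03 times with anti-CD36, and 8.41 and 8.35 times with the combination.

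Ski (chromosome 4, 155154075 to 155222592, minus strand), the founding member of the repressor family that blocks SMAD activity, moved opposite to Tgif1 with LPS. Its FPKM was 11.5 and 12.4 untreated, 6.14 and 6.18 with LPS, 13.0 and 7.57 with anti-CD36, and 5.24 and 4.98 with the combination. The LPS-treated libraries were all below the others, while the antibody libraries straddled the untreated ones. The log2 difference with LPS was -0.86 ± 0.21 (SE, limma adjusted p = 0.00969) and in antibody-treated cells -0.84 ± 0.21 (limma adjusted p = 0.0125). The first call was narrowly lost without untreated replicate 2 (limma adjusted p = 0.0526), LPS replicate 1 (0.0562) or LPS replicate 2 (0.0505) and with the length trend removed (0.0505), and the second without combination replicate 1 (0.0592) or 2 (0.0716). Left without anti-CD36 replicate 1, Ski was called lower with the antibodies (-0.60, limma adjusted p = 0.00563), and without replicate 2 its value was 0.10.

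Skil (chromosome 3, 31095058 to 31122577, plus strand), the close relative of Ski and a target of SMADs in feedback, was not called in any comparison on the deposited scale with all 8 libraries. Its FPKM was 3.77 and 5.15 untreated, 4.70 and 5.23 with LPS, 3.25 and 3.19 with anti-CD36, and 2.72 and 3.38 with the combination. The LPS libraries overlapped the untreated ones, and all 4 antibody-treated libraries lay below the 4 others. With LPS the log2 difference was 0.14 ± 0.15 (limma adjusted p = 0.454), with anti-CD36 -0.36 ± 0.15 (0.146), and for the combination against LPS -0.56 ± 0.15 (0.102), none of which was called. With the length trend removed it was called higher with LPS (0.42, limma adjusted p = 0.0165), and without untreated replicate 1 the value with LPS was -0.046. Within libraries Ski stood at 3.06 and 2.42 times Skil untreated, 1.31 and 1.18 times with LPS, 3.99 and 2.37 times with anti-CD36, and 1.92 and 1.47 times with the combination.

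**Figure D2:**
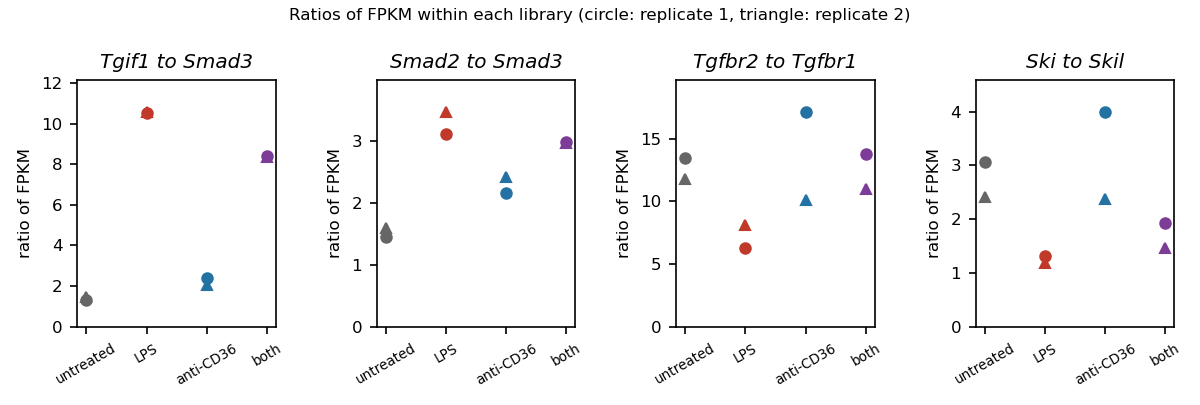
Ratio of the FPKM of a pair of genes within each library (vertical axes, starting at 0) by group; circles are replicate 1 and triangles replicate 2. The Tgif1 to Smad3 ratio is 1.31 and 1.44 untreated and 10.5 and 10.6 with LPS, and the Tgfbr2 to Tgfbr1 ratio is lowest with LPS alone, at 6.32 and 8.13.

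With anti-CD36 alone, 2 of 9 genes were called, Smad3 and Smad4, both lower, and no gene was called higher. Over all genes 13.7% were called, 3.04% higher and 10.6% lower, and the median difference was -0.36 over the 9 genes and -0.077 over all. FPKM ranges did not overlap between these groups in 5 of the 9 (Tgfbr1, Tgfbr2, Smad3, Smad4 and Skil, all lower), where 52.6% of all genes did not overlap and 35.9% of all genes did so in the lower direction. Both calls were lost with size factors (limma adjusted p = 0.0793 for Smad3 and 0.0928 for Smad4), after quantile normalization (0.114 and 0.0619), after removal of the length trend (0.0976 and 0.0613) and in a fit on those 4 libraries (0.194 and 0.197). They were also lost without untreated replicate 1 (0.133 for Smad3 and 0.175 for Smad4) or 2 (0.165 and 0.195), LPS replicate 1 or 2 (0.0762 and 0.0785 each), or combination replicate 1 (0.0702 and 0.08) or 2 (0.0701 and 0.08). Their values stayed at -0.70 to -0.29 for Smad3 and -0.45 to -0.33 for Smad4 over these and the other alternatives. Differences in this comparison followed transcript length over all genes (Spearman rho -0.445 over 10034 genes, which are not independent replicates). The 9 genes run from 3712 bases of exon (Smad4) to 9694 (Skil). With the GC content of transcripts the rho was -0.215, a trend that was not removed. Without anti-CD36 replicate 1 the genes called were Tgfb1, Tgfbr2, Smad3, Smad4 and Ski, all lower, where 36.3% of all genes were called, 21.8% lower. Without replicate 2 they were Tgfb1 (higher), Tgfbr1, Smad3 and Smad4, where 27.4% of all genes were called, 7.64% higher and 19.8% lower.

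**Figure D3:**
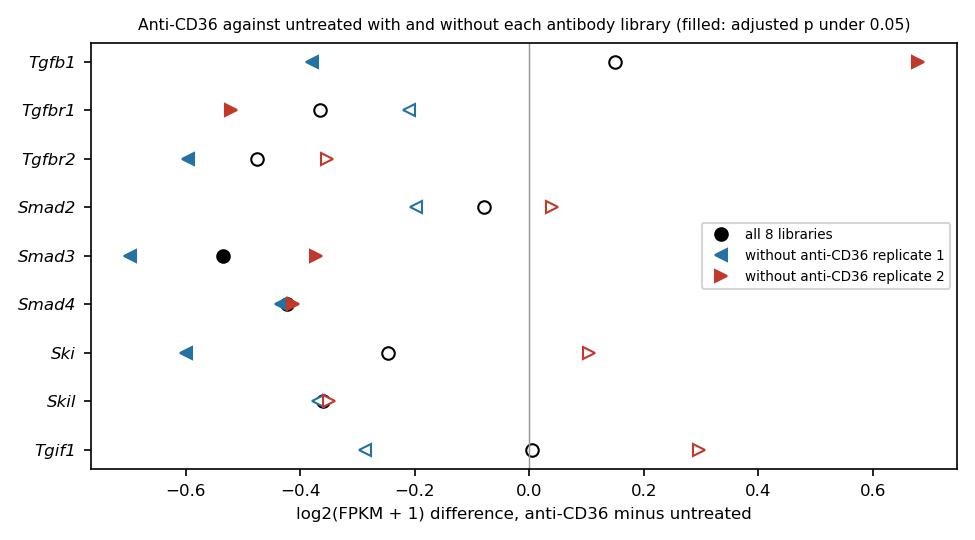
Log2(FPKM + 1) difference of anti-CD36 minus untreated (horizontal axis) for each gene with all 8 libraries (circles), without anti-CD36 replicate 1 (left-pointing triangles) and without replicate 2 (right-pointing triangles); filled symbols have a limma adjusted p under 0.05. Tgfb1 lies at -0.38 and 0.68 in the fits that leave out a library, while Smad4 stays at -0.43 and -0.41.

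Setting the combination against LPS shows the antibodies' difference in cells that all received LPS. None of the 9 genes was called by limma, where 1.78% of all genes were, 0.36% higher and 1.42% lower (2005 genes at an unadjusted p under 0.05). Tgfbr1, Smad4 and Skil had unadjusted p-values of 0.00255, 0.00154 and 0.00603, and the other 6 were above 0.05. FPKM ranges did not overlap in 8 of the 9, of which 7 were lower and Tgfb1 was higher, against 64.1% of all genes, with 35.6% of all genes lower. In a fit on only these 4 libraries Tgfbr1, Smad4, Skil and Tgif1 were called, all lower (limma adjusted p = 0.00248, 0.00373, 0.00581 and 0.0259), where 22.4% of all genes were called, 14.4% lower. Tgfbr1, Smad4 and Skil were also called in the fits without anti-CD36 replicate 1 (0.0116, 0.0131 and 0.0342) or replicate 2 (0.0119, 0.0132 and 0.0344), which leave these 4 libraries as they are and change only the shared spread. In each of these fits 13.9% of all genes were called. Differences in this comparison followed length as well (Spearman rho -0.476 over genes). With the length trend removed the 3 stood at -0.45, -0.53 and -0.36 (limma adjusted p = 0.142, 0.0579 and 0.179). Differences also followed the GC content of transcripts (Spearman rho 0.319 over genes), a trend that was not removed. Between the 2 combination libraries that rho was 0.623. GC content was 43.5% for Tgfbr1, 50.6% for Smad4 and 41.6% for Skil.

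With LPS in antibody-treated cells, 5 of 9 genes were called, Tgif1 higher and Tgfbr1, Tgfbr2, Smad3 and Ski lower, where 47.1% of all genes were, 15.4% higher and 31.7% lower. FPKM ranges did not overlap in 7 of the 9, of which 6 were lower, against 70.4% of all genes, with 45.5% of all genes lower. This comparison and LPS against untreated share no library, but their p-values rest on the same estimate of spread for each gene. The interaction called none of the 9 and 0.00972% of all genes. At an unadjusted p under 0.05 the interaction held Smad3 alone among the 9, and 1396 genes in all.

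**Figure D4:**
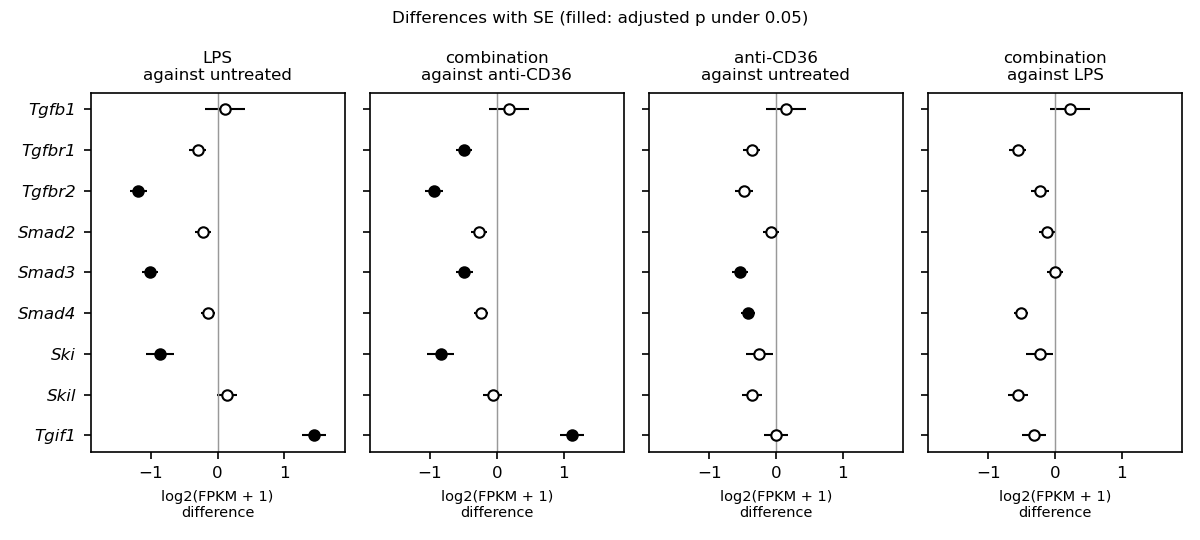
Log2(FPKM + 1) differences (horizontal axes) with their SE for the 9 genes in 4 comparisons; filled points have a limma adjusted p under 0.05. Tgif1 lies at 1.44 and 1.12 in the LPS comparisons, Tgfbr2 at -1.19 and -0.94, and no point is filled in the combination against LPS.

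The rest of the pathway was read from 8 lists. None of the calls with anti-CD36 alone in these lists was made in a fit on the 4 libraries compared, which called 0 genes. The list counts are read against the shares of all genes called: 17% higher and 37.5% lower with LPS (median difference -0.19), and 3.04% higher and 10.6% lower with anti-CD36 (median -0.077). None of 15 other ligands of the superfamily had a row, so Tgfb1 was the ligand measured. As no gene of the table has a 0 in any library, a ligand without a row may still be expressed in some groups. Of genes that hold TGF-beta latent or release it, 5 of 15 were tested, and with LPS 2 rose and 1 fell (median 0.16), against 17% and 37.5% of all genes. The gelatinase Mmp9 rose from 0.427 ± 0.107 FPKM (SD, n = 2) to 24.3 ± 0.609 (log2 difference 4.15), the proprotein convertase Furin, which cleaves the TGF-beta precursor, rose from 10.5 to 24.6 (1.16), and Nrros, which anchors latent TGF-beta on myeloid cells, fell from 39.3 to 17.8 (-1.11). With anti-CD36 alone 3 of the 5 fell and none rose (median -0.77), against 10.6% of all genes lower: Itgav, the integrin subunit that activates latent TGF-beta, at 3.33 against 7.40 (-0.95), the mannose 6-phosphate receptor Igf2r (-0.85) and Furin (5.77, -0.77). With the combination Mmp9 stood at 40.9 ± 5.25, above LPS (0.72, limma adjusted p = 0.0451), a call lost in 11 of 18 alternatives. These were every fit without an untreated, LPS or combination library, a pseudocount of 0.1 (limma adjusted p = 0.111), a mean of at least 5 FPKM (0.052), quantile normalization (0.0613), the length trend removed (0.063) and the block on replicate number. With the combination Furin stood at 27.3.

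Of 8 other receptors of the superfamily tested, 2 fell with LPS and none rose (median -0.081), below the 37.5% of all genes that fell. They were the activin receptors Acvr1b (6.51 to 3.47 FPKM, log2 difference -0.75) and Acvr2b (2.20 to 1.23, -0.52). The same 2 were the ones that fell with anti-CD36 (median -0.32, against 10.6% of all genes lower), to 4.23 (-0.52, a call lost in 6 of 17 alternatives) and 0.987 (-0.69). With LPS in antibody-treated cells Eng, the coreceptor endoglin, rose (0.68) and Bmpr1a, a receptor for bone morphogenetic proteins, fell (-0.42, a call lost in 8 of 18 alternatives), against 15.4% and 31.7% of all genes. Of 3 other SMADs, 2 fell with LPS (median -0.62), against 37.5% of all genes: Smad5, a carrier of bone morphogenetic protein signals, from 7.08 to 4.25 (-0.62) and the inhibitory Smad6 from 1.02 to 0.284 (-0.65). Smad5 fell with anti-CD36 as well (4.66, -0.52), a call lost in 9 of 17 alternatives, and Smad1 was not called.

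**Figure D5:**
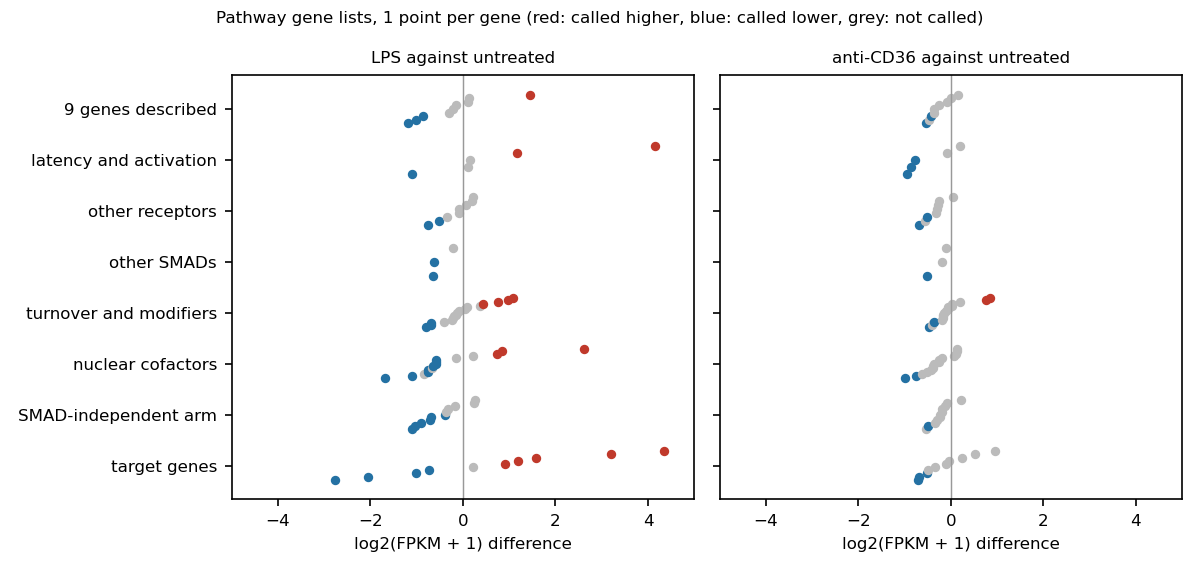
Log2(FPKM + 1) difference (horizontal axes) of each tested gene of the pathway lists, with LPS and with anti-CD36 against untreated cells; red points are called higher, blue points called lower and grey points not called. With LPS the called genes include Mmp9 at 4.15 and Klf10 at -2.77, and with anti-CD36 the called genes lie between -0.99 (Ep300) and 0.84 (Uchl5).

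Of 17 genes for the turnover and modification of receptors and SMADs, 4 rose and 3 fell with LPS (median -0.12), against 17% and 37.5% of all genes. The deubiquitinase Uchl5 rose from 24.4 to 52.9 FPKM (1.09), the endocytic adaptor Dab2 from 23.3 to 46.6 (0.98), and the ubiquitin ligase Stub1 fell from 27.9 to 15.7 (-0.80). With anti-CD36, Uchl5 (44.5, 0.84) and the deubiquitinase Usp15 (9.44 against 5.22, 0.76, a call lost in 5 of 18 alternatives) rose, against 3.04% of all genes. In the same comparison 2 fell (median -0.15), among them Ldlrad4 (-0.48), which hinders SMAD activation and lost its call in 12 of 17 alternatives, against 10.6% of all genes. Of 15 nuclear cofactors 3 rose and 8 fell with LPS (median -0.59), against 17% and 37.5% of all genes. Atf3, a stress-induced factor that pairs with Smad3, rose from 17.2 to 110 (2.61), Rbl1, the p107 protein of SMAD repressor complexes, fell from 20.8 to 5.76 (-1.68) and the acetyltransferase Ep300 fell from 11.7 to 4.91 (-1.10). With anti-CD36, Ep300 (-0.99, a call lost in 11 of 18 alternatives) and Sp1 (-0.74), a factor of GC-rich promoters, fell, and none rose (median -0.36), against 10.6% of all genes lower.

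Of 11 genes for signals that bypass SMADs, 6 fell with LPS and none rose (median -0.39), against 37.5% and 17% of all genes, led by the adaptor Shc1 (28.3 to 12.6, -1.11), the kinase p38 alpha, Mapk14 (34.2 to 16.3, -1.03), and Tab1, an activator of the kinase TAK1 (-0.91). With anti-CD36, 1 fell, the ubiquitin ligase Traf6 (-0.48, list median -0.23), a call lost in 12 of 18 alternatives. Of 10 tested genes known as TGF-beta targets 5 rose and 4 fell with LPS (median 0.56), against 17% and 37.5% of all genes. Id1, an inhibitor of basic helix-loop-helix factors, rose from 2.51 to 32.0 (3.21). Klf10, an early TGF-beta response gene, fell from 14.9 ± 0.688 to 1.34 ± 0.146 (-2.77), so the listed targets did not share a direction. With anti-CD36, 3 fell and none rose (median -0.22), against 10.6% of all genes lower. Among them were Cx3cr1, the fractalkine receptor (-0.70, a call lost in 11 of 17 alternatives), and Klf10 (10.2, -0.51, lost in 8 of 18). In the combination against LPS no gene of these lists but Mmp9 was called, and in the interaction none was.

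In the comparison of LPS in antibody-treated cells, 15.4% of all genes rose and 31.7% fell (median -0.15). Of 5 latency and activation genes 4 rose and 1 fell (median 0.68), among them Mmp9 (4.67), Furin (2.06) and Itgav (0.68). Of 3 other SMADs, Smad6 (-0.43) and Smad5 (-0.38, a call lost in 11 of 17 alternatives) fell and none rose (median -0.38). Of 17 turnover genes 2 rose and 3 fell (median -0.098), with Usp11 at 0.53, Stub1 at -0.73 and Wwp2 at -0.57. Of 15 nuclear cofactors 3 rose and 4 fell (median -0.43), with Atf3 at 2.34, Rbl1 at -1.47 and the corepressor scaffold Sin3a at -0.68, a call lost in 6 of 18 alternatives. In the arm that bypasses SMADs 4 of 11 fell, near the share of all genes, and none rose (median -0.32), led by Tab2 (-0.96), Shc1 (-0.90) and Mapk14 (-0.79). Of 10 targets 5 rose and 3 fell (median 0.68), among them Id1 (2.07) and Klf10 (-2.23).

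Genes whose log2 level ran most like that of a member over the 8 libraries were sought among 6619 genes with a mean FPKM of at least 5. As the 8 libraries form 4 groups, these values mostly describe group means, and no p is given. The closest to Tgfbr2 were Klhl5, the palmitoyltransferase Zdhhc3 and Tent4a (Pearson's r 0.999, 0.997 and 0.997). The closest to Smad3 were Prune1, the nonsense-mediated decay helicase Upf1 and the histone ubiquitin ligase Rnf40 (0.994, 0.994 and 0.994). The closest to Tgif1 were Lcp2, an adaptor of immune receptors, Rai14 and Fyco1 (0.993, 0.990 and 0.988). For Ski they were the splicing factor Sf1, Ripor1 and Zcchc8 (0.997, 0.995 and 0.995), and for Tgfb1, whose antibody libraries lay apart, Lgals3bp, Ino80e and emerin, Emd (0.961, 0.952 and 0.946).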

How the data were processed

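Bulk RNA sequencing of 8 libraries (4 groups of 2) was analysed from 1 table of FPKM values that the authors deposited, with 1 column per library and no column unused. Per the submitters' processing notes, the tool was HISAT2 2.0.5, with mm10 and hg38 as builds. What hg38 was for, the read counter, the annotation and the strand setting are not given in the sources used here, and the labels name 10x Genomics although each column is a bulk library. Samples were grouped by their labels. Depth was recovered by scaling FPKM by the exon length of GENCODE M21 (GRCm38): 9872 of 10366 genes with a length, or 95.23%, came out within 0.05 of whole reads in all 8 libraries. No exon of the 9 genes overlaps an exon of another gene there.

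Genes reaching 1 FPKM in 2 or more libraries (10289, all 9 members among them) entered limma 3.58.1 (R 4.3.3) on log2(FPKM + 1), with 4 group means, a trend on expression and 4 residual and 3.46 prior degrees of freedom. The scale understates changes of low genes. P-values were adjusted by Benjamini-Hochberg over all genes tested, and the script was tested on simulated data. The members and lists were chosen with earlier results of these data known. Named beside the members were the up to 3 called genes per list and comparison that differed most in size, and the 3 genes most correlated with a member; 1 gene this rule names is not reported here. Alternatives were a pseudocount of 0.1 or 5, the filter dropped or set to a mean of 5 FPKM, median-ratio size factors, quantile normalization, a replicate block, a fit on only the groups compared, each library left out and, chosen after seeing the data, a lowess trend on exon length removed per library and limma-voom on the recovered reads. Fits that leave out a library assume that the lone library varies like the other groups.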

Additional observations from a re-analysis of the deposited data

How the results depend on the processing

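Depth did not limit the 9 genes, which held at least 316 reads in every library; 2 libraries per group limit the precision. Over 786 refits of the 9 genes, 687 kept the direction and the side of the threshold, 38 lost a call, 23 gained one and 38 changed sign; over 959 refits of the other named genes 821 kept both and 138 lost a call. The cause of these changes was not tested. The filter on a mean FPKM of at least 5 removes Smad3, Skil and Tgfbr1 and tests fewer genes. It called 3665 genes with LPS and 88 in the combination against LPS. With anti-CD36 it called 811 (11.9% of those tested), and of the members it still tested, Smad4 alone. In the combination against anti-CD36 it called 3098 (45.6% of those tested), and of the members it still tested, Tgfbr2, Ski and Tgif1. With size factors and with quantile normalization 0 of the 9 were called with anti-CD36, where 9.88% and 10.7% of all genes were. A fit on only the groups compared called 0 genes and 0 of the 9 with anti-CD36 (2045 at an unadjusted p under 0.05). In the combination against LPS it called 2307 genes (22.4% of all tested) and 4 of the 9. In the combination against anti-CD36 it called 3261 genes (31.7%) and 3 of the 9. With the length trend removed, 739 genes (7.36% of all tested) and 0 of the 9 were called with anti-CD36, and 2 genes in the interaction. In the combination against anti-CD36 that setting called 4820 genes (48.0%) and 3 of the 9. The interaction called 0 genes with a pseudocount of 0.1, 6 with a pseudocount of 5 and 0 with limma-voom (1227 at an unadjusted p under 0.05), against 1.

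The labels tie same-numbered libraries by number alone. The correlation of their deviations ran from -0.645 to 0.53 between groups. Its sign depends on how the libraries of a group are numbered, so these values cannot decide whether libraries were paired across groups. With the replicate block 863 genes and 0 of the 9 were called with anti-CD36 and 46 genes in the combination against LPS. Leaving out 1 library gave 3598 (without LPS replicate 1) to 7091 genes (without anti-CD36 replicate 1) and 3 to 5 of the 9 with LPS, 0 (without either untreated library) to 3730 (without anti-CD36 replicate 1) genes and 0 to 5 of the 9 with anti-CD36, 1 (without either LPS library or combination replicate 1) to 1431 genes and 0 to 3 of the 9 in the combination against LPS, 3216 to 6381 genes and 2 to 7 of the 9 in the combination against anti-CD36, and 1 to 615 genes and 0 to 1 of the 9 in the interaction.

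The differences that changed sign were not called on the deposited scale with all 8 libraries, and only Tgfb1 was called after the change, without an anti-CD36 library. With size factors the values were 0.079 for Smad4 with LPS, 0.0096 for Smad2 with anti-CD36, 0.031 for Smad3 in the combination against LPS, 0.079 for Skil in the combination against anti-CD36 and -0.036 for Ski in the interaction. With quantile normalization the first 4 were 0.0036, 0.050, 0.089 and 0.11. With the length trend removed, Tgfbr1 was at 0.0045, Smad2 at 0.064 and Smad4 at 0.11 with LPS, Smad2 at 0.17 with anti-CD36, Smad2 at 0.050 and Smad3 at 0.069 in the combination against LPS, Skil at 0.15 in the combination against anti-CD36, and Tgfb1 at -0.00055 and Ski at -0.061 in the interaction. With limma-voom Tgif1 was at -0.0095 with anti-CD36. Over the fits that leave out 1 library, Skil ran from -0.046 to 0.32 with LPS; with anti-CD36 Tgif1 ran from -0.29 to 0.30, Tgfb1 from -0.38 to 0.68, Smad2 from -0.20 to 0.039 and Ski from -0.60 to 0.10; Smad3 ran from -0.026 to 0.021 in the combination against LPS; Tgfb1 ran from -0.34 to 0.71 and Skil from -0.18 to 0.055 in the combination against anti-CD36; and in the interaction Smad2 ran from -0.17 to 0.072, Tgfb1 from -0.45 to 0.61, Ski from -0.33 to 0.37 and Smad4 from -0.19 to 0.0085.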
